A study of Mus musculus with 9 samples.

Results

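The 44 genes described here encode the proteins that copy DNA in S phase and the enzymes that supply its deoxynucleotides. They were chosen by name, as every non-control probe whose gene name in the array files equals one of 44 symbols. They hold 62 of 55,681 probes and 44 of 34,650 gene names. On at least 1 array, 59 of the 62 probes exceeded background clearly, so that all 44 genes were among the 24,101 genes measured, 33 with 1 such probe and 11 with several.

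RNA was measured on one-color Agilent arrays of mouse 60-mer probes, with 3 arrays in each of 3 groups. The arrays of a group stem from separate experiments. All groups were primary microglia from the brains of fms-EGFP mouse pups (postnatal day 0-1), in which the fms (Csf1r) promoter drives a green fluorescent protein in cells of the macrophage lineage. The cells were grown for about 14 d with GM-CSF at 5 ng/ml. Control microglia were not fed (time 0). Phagocytic microglia were fed for 3 h (Ph3h) or 24 h (Ph24h), at about 1:1, with human SH-SY5Y neuroblastoma cells labeled with CM-DiI at 5 µM and made apoptotic with staurosporine at 3 µM for 4 h. The study asked how phagocytosis of apoptotic cells changes transcription in microglia. No unfed culture was kept for 3 or 24 h, so feeding and time in culture cannot be told apart. Cultures were pooled over pups, and in such bulk samples fewer cells of a type and less RNA per cell cannot be told apart.

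Replication starts when the origin recognition complex, CDC6 and CDT1 load the MCM2-7 ring onto DNA, a step that geminin (Gmnn) blocks by holding CDT1. MCM10 and the GINS complex turn the ring into a running helicase, the polymerase alpha-primase complex lays primers, and polymerases epsilon and delta extend them. A PCNA clamp, which replication factor C (RFC) loads, tethers these polymerases to DNA. Many of these genes are transcribed only around S phase, under control of E2F factors, so their RNA is widely read as a mark of proliferating cells. GM-CSF is known to drive microglia in culture to divide.

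Values below are scaled intensities: the background-subtracted fluorescence of a probe divided by the 75th percentile of all probes on the same array, so that 1 is the level of that percentile. Intensities of different probes are not compared, since probes differ in how brightly they hybridize. Differences are on the log2 scale with their standard error (SE) from limma, n = 3 arrays a group, and a gene is called where the p adjusted over all 24,101 genes lies below 0.05. Both comparisons with control use the same 3 control arrays. Groups whose arrays do not overlap were common. Of all 24,101 genes, 8472 lay wholly above and 7359 wholly below control at 3 h, and 8379 and 8803 at 24 h. Of the 44 genes, 22 and 12 did so at 3 h, and 7 and 36 at 24 h.

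Before scaling, the 75th percentile intensity was 356 to 473 for control, 185 to 211 for Ph3h and 156 to 161 for Ph24h microglia, and no spot was saturated. Microglial markers, 12 of 12 measured, had a summed scaled level of 1359 to 1438 in unfed microglia, 1803 to 1940 at 3 h and 1202 to 1223 at 24 h. Of all genes tested, 27.9% were called higher and 25.9% lower at 3 h, and 29.9% and 33.2% at 24 h. At 3 h, 5 of the 12 markers (41.7%) were called higher and 3 (25%) lower, and at 24 h 2 (16.7%) and 8 (66.7%). Csf1r, one of those higher at 24 h, was at 385 to 394, 394 to 442 and 488 to 512. Cx3cr1 was at 5.01 to 6.11, 2.65 to 3.72 and 0.190 to 0.283. P2ry12 was at 0.0631 to 0.0759, 0.191 to 0.235 and 0.0178 to 0.0189, higher at 3 h than in control. It was above background on all arrays of the first 2 groups and on no Ph24h array. The part of these markers in the results was not tested. A list of SH-SY5Y markers, 21 of 26 measured, summed to 2.01 to 2.37 in unfed microglia, 1505 to 1638 at 3 h and 2274 to 2623 at 24 h. At 3 h, 14 of these 21 genes (66.7%) were called higher and 2 (9.52%) lower. At 24 h the counts were 15 (71.4%) and 1 (4.76%). Vgf made up most of the sum in fed microglia, and 10 genes, Hand2, Isl1 and Chga among them, did not rise well above background before feeding. Gata2 and Gap43 were above background on at most 1 array of any group. The 75th percentile and these SH-SY5Y markers, read with mouse probes, moved with the groups, and their part in the results below was not tested. The study reported low homology to human transcripts for most array probes and degraded RNA in apoptotic SH-SY5Y cells. It also reported no nuclear labeling of newly made RNA in those cells. Astrocyte markers, 7 of 8 measured, summed to 15.0 to 19.3, 16.5 to 18.8 and 17.3 to 17.6. Most of this sum came from Aldh1l1 and Aldoc, which moved in opposite directions. Aldh1l1 was at 6.23 to 6.47, 10.5 to 12.6 and 4.18 to 4.31, and Aldoc at 8.49 to 11.6, 5.18 to 5.60 and 12.7 to 12.8. Of the 7, 1 (14.3%) was called higher and 1 (14.3%) lower at 3 h, and 1 (14.3%) and 2 (28.6%) at 24 h. Oligodendrocyte markers, 6 of 7, summed to 23.3 to 24.2, 19.3 to 19.4 and 15.3 to 16.2, a fall that moved with the groups and whose part in the results was not tested. Of these 6, 2 (33.3%) were called higher and 2 (33.3%) lower at 3 h. At 24 h, 3 (50%) were called higher and 2 (33.3%) lower. Mbp held most of the oligodendrocyte sum and went from 20.7 to 21.7 in control to 11.8 to 12.8 in Ph24h microglia. Mog went from 0.276 to 0.398 to 1.16 to 1.29. Gfap was above background on 1 array of each group and Olig2 on 1 Ph24h array alone. Fibroblast and endothelial markers, 6 of 8, summed to 1.17 to 1.88, 1.59 to 2.01 and 1.47 to 2.03.

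More replication genes were called above than below control after 3 h of feeding, a direction that depended on the scaling (below). Most were called below control after 24 h. At 3 h, 20 of 44 were higher and 9 lower than in control microglia, where 27.9% and 25.9% of all genes were called in these directions. At 24 h, 6 were higher and 34 lower, against 29.9% and 33.2% of all genes. Tk1, among those higher, and Rfc4, among those lower, each had another kept probe that went the opposite way at 24 h (below). Between the fed groups, 4 were higher and 34 lower at 24 h than at 3 h, against 20.4% and 24% of all genes. As shares of the 44 genes, these were 45.5% and 20.5%, 13.6% and 77.3%, and 9.09% and 77.3%.

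**Figure D1:**
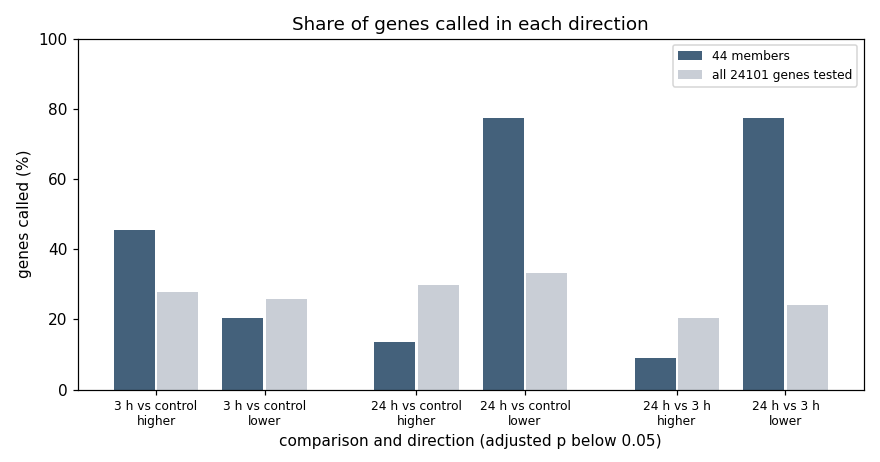
Share of genes called higher or lower in each comparison (y axis, percent of genes), for the 44 replication and nucleotide supply genes (dark bars) and for all 24,101 genes tested (light bars). The dark bars for lower at 24 h stand at 77.3% against both control and Ph3h, beside light bars of 33.2% and 24%.

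The median log2 difference of the 44 genes was 0.17 at 3 h (0.07 over all genes), -0.75 at 24 h (0.01 over all genes) and -0.76 between 24 h and 3 h (0.04 over all genes). With genes below background in a group set to their bound, the medians were 0.17, -0.73 and -0.70. On single arrays, the median distance of the 44 genes from the control mean was -0.01 to 0.02 without feeding, 0.11 to 0.27 after 3 h and -0.78 to -0.73 after 24 h, so the 3 groups did not overlap. Within slide 1, which held replicates 1 and 2 of each group, the medians were 0.23, -0.74 and -0.73, and on slide 2, with 1 array a group, they were 0.12, -0.80 and -0.82.

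The sign at 3 h depended on how arrays were brought to a common scale. When each array was divided by its median instead, the median of all genes moved to -0.18 at 3 h and -0.50 at 24 h, and that of the 44 genes was -0.074 and -1.25. The calls at 3 h became 10 higher and 16 lower. Those at 24 h became 3 higher and 38 lower. Relative to the median of all genes, 26 of the 44 lay above it at 3 h and 37 lay below it at 24 h. These counts are the same under both scalings by construction, since each subtracts a constant from all genes of an array. With quantile normalization, 27 lay above the median of all genes at 3 h and 35 below it at 24 h.

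**Figure D2:**
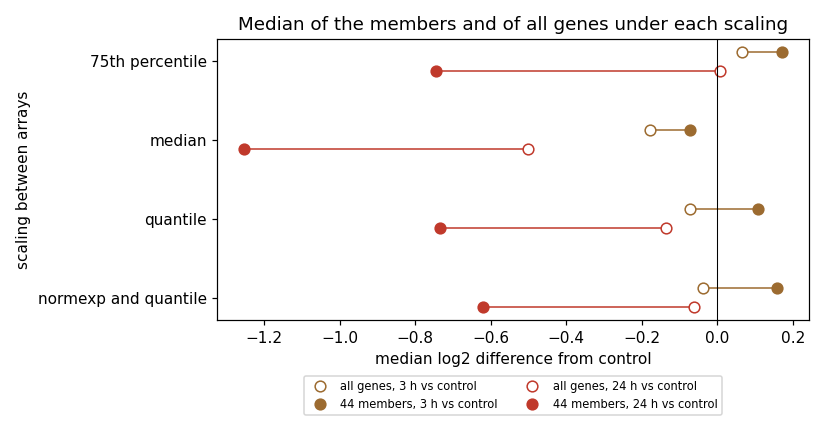
Median log2 difference from control (x axis) of all genes (open circles) and of the 44 replication and nucleotide supply genes (filled circles) at 3 h (brown) and 24 h (red), under 4 ways of scaling arrays (y axis). The 44 genes lie right of all genes at 3 h and left of them at 24 h in all 4, while the position of zero shifts, most with median scaling.

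By both time points together, 13 genes (29.5% of the 44, where 3.81% of all genes did so) exceeded control at 3 h and lay below it at 24 h: Mcm3, Mcm4, Mcm5, Mcm6, Mcm10, Gins2, Rfc5, Pole, Chaf1a, Chaf1b, Top2a, Rrm1 and Rrm2. None was lower and then higher, as 1.7% of all genes were. A further 13 were not called at 3 h and lower at 24 h: Cdc6, Mcm2, Gins1, Gins4, Pcna, Rfc1, Rfc2, Rfc4, Pola1, Prim1, Rpa1, Fen1 and Dut. Cdt1, Gmnn, Rfc3, Pold3, Pole2, Rpa3, Lig1 and Dna2 were lower at both times, and Mcm7, Pold1, Pold2, Tk1 and Tyms were higher at both. Gins3 and Prim2 were called at 3 h alone, both higher, Rnaseh2a at 3 h alone, lower, and Pola2 at 24 h alone, higher. Rpa2 was not called against control at either time. The 13 became 7 with median scaling (Mcm5, Mcm6, Gins2, Rfc5, Top2a, Rrm1 and Rrm2). Mcm5, Mcm6, Rfc5, Top2a, Rrm1 and Rrm2 stayed higher at 3 h and lower at 24 h under all 21 alternative settings that gave a test.

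**Figure D3:**
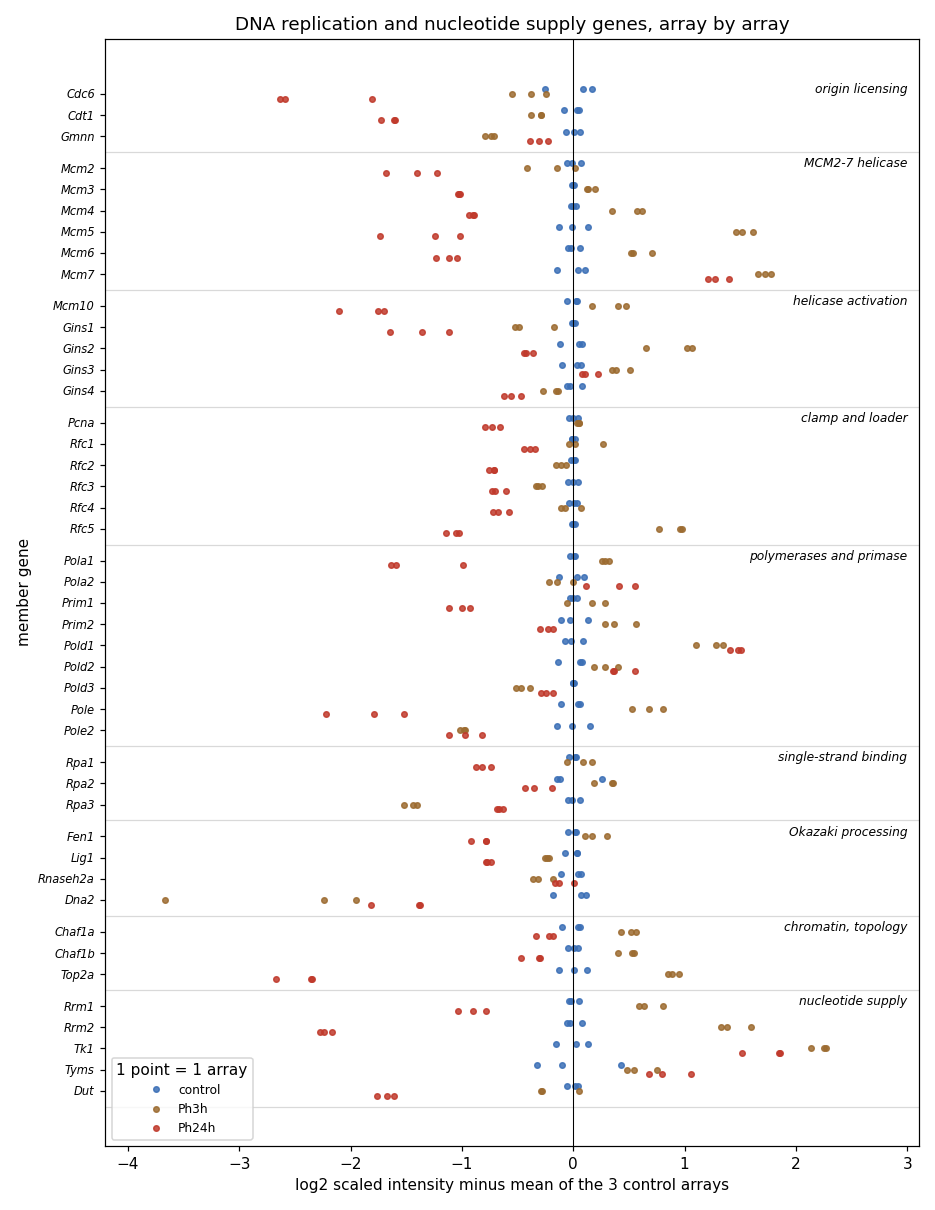
Each of the 44 genes on its own line, grouped by replication step, with 1 point per array: log2 scaled intensity minus the mean of the 3 control arrays (x axis) in control (blue), Ph3h (brown) and Ph24h (red) microglia. Red points lie left of the blue ones for most genes, and to their right for Mcm7, Pold1, Pold2, Pola2, Tk1, Tyms and Gins3, the last not called. Each gene is read from a single probe. The other kept probes of Tk1 and Rfc4, not drawn, went the opposite way at 24 h.

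Promoter sequence was printed for the 5 genes with the largest fall between the fed times among those higher at 3 h, lower at 24 h and matched to a promoter (Rrm2, Top2a, Mcm5, Mcm10 and Rfc5), for Mcm6, shown for its E2F words, and for Mcm7 and Pold1, which were higher at both times. Each stretch is the 120 bases before the RefSeq transcription start on mouse build GRCm38.p6, in the direction of transcription. Capitals mark E2F words (TTTCCCGC, TTTGGCGC, TTTCGCGC or TTTGCCGC), CCAAT boxes (CCAAT) and cell cycle genes homology region words (TTTGAA or TTCGAA), read on both strands. Overlapping words run together.
Rrm2 (chr12:24708134-24708253, plus strand): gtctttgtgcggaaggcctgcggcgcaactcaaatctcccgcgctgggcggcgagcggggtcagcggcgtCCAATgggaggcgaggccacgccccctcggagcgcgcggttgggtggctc
Top2a (chr11:99024190-99024309, minus strand): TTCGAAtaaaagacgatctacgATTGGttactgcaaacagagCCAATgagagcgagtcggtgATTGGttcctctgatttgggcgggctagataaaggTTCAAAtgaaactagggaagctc
Mcm5 (chr8:75109389-75109508, plus strand): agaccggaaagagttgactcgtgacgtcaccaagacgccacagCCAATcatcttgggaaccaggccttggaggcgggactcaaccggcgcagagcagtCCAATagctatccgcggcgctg
Mcm10 (chr2:5012792-5012911, minus strand): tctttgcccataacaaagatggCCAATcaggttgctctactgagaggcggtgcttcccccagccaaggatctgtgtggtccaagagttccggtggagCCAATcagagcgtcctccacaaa
Rfc5 (chr5:117389024-117389143, minus strand): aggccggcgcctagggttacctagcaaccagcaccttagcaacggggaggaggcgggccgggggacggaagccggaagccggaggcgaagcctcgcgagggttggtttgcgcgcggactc
Mcm6 (chr1:128359706-128359825, minus strand): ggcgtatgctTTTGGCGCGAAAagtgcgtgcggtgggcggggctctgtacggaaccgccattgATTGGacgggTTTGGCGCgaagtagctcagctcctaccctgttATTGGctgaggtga
Mcm7 (chr5:138171884-138172003, minus strand): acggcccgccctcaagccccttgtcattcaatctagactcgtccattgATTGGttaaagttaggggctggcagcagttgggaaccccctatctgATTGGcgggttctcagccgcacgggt
Pold1 (chr7:44548816-44548935, minus strand): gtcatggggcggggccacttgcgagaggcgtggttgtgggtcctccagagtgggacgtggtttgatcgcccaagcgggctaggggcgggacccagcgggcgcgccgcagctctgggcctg

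The Mcm6 stretch holds 3 E2F words, of which a pair overlap as one run of capitals, and the Top2a stretch holds CCAAT boxes on both strands between cell cycle genes homology region words. The Rrm2 stretch holds a single CCAAT box, the Mcm5 and Mcm10 stretches a pair each, and no word lies in those of Rfc5 and Pold1. Outside the printed stretches, but within 250 bases before to 50 after the start, E2F words lie at Mcm5 (2), Mcm7 (2) and Pold1 (1). For 36 of the 44 genes a RefSeq promoter could be matched by symbol, each 250 bases before to 50 after the start. The other 8 are Gmnn, Mcm4, Gins1, Gins2, Gins4, Rfc2, Prim2 and Pole. An E2F word was present in 12 of the 36 (33.3%) and in 626 of 27,025 genes (2.32%). A CCAAT box was present in 21 (58.3%, against 37.9% of all genes), and a cell cycle genes homology region word in 6 (16.7%, against 19.4%). Of the 27 matched genes lower at 24 h, 9 held an E2F word, as did 3 of the 9 others, Mcm7 and Pold1 among them. A word match is a description of the letters and not evidence of a bound factor.

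Origin licensing genes were lower at 24 h, all 3 of them, beside 33.2% of all genes. Control arrays read 0.103, 0.109 and 0.0811 for Cdc6, those at 3 h 0.0746, 0.0814 and 0.0661 and those at 24 h 0.0156, 0.0276 and 0.0161. Ph3h and control arrays overlapped, and no Ph24h array was well above background. The log2 difference at 3 h was -0.39 ± 0.23 (SE, adjusted p = 0.2). At 24 h Cdc6, the loading factor that recruits the MCM ring, was at least 1.32-fold lower than in control, a lower bound set by the background. The fitted difference was -2.34 (adjusted p = 9.2e-05), a test that does not apply to the bound. For Cdt1 the scaled intensities were 63.1, 63.8 and 58.3 (control), 50.5, 47.4 and 50.5 (Ph3h) and 20.2, 20.3 and 18.7 (Ph24h). The groups did not overlap, and each fed group lay below the one before it. Cdt1, the partner of CDC6 in loading, differed from control by -0.32 ± 0.064 (SE, adjusted p = 0.0043) and -1.65 ± 0.064 (SE, adjusted p = 1e-06). Gmnn stood at 2.93, 2.79 and 3.05 in unfed microglia, at 1.69, 1.79 and 1.75 after 3 h and at 2.36, 2.50 and 2.23 after 24 h. Geminin, the inhibitor of CDT1, was lowest at 3 h, at -0.75 ± 0.065 (SE, adjusted p = 6.2e-05) from control, and -0.31 ± 0.065 (SE, adjusted p = 0.0043) from it at 24 h. From 3 h to 24 h Gmnn rose by 0.44 ± 0.065 (SE, adjusted p = 0.0011), the direction opposite to Cdt1. The call of Gmnn at 24 h was lost with normexp background correction (adjusted p = 0.051) and on slide 1 alone (0.065), and its rise from 3 h to 24 h was lost with median scaling (0.17).

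The MCM2-7 helicase, the ring of 6 related subunits that unwinds DNA, did not move as 1 unit. Of its genes, 5 were higher at 3 h, beside 27.9% of all genes. All 6 were lower at 24 h than at 3 h, beside 24% of all genes. Against control, 5 were lower at 24 h and Mcm7 alone was higher, beside 33.2% and 29.9% of all genes. Mcm5 gave 1.76, 1.94 and 1.62 in control microglia, then 4.87, 5.42 and 5.05 at 3 h and 0.531, 0.748 and 0.873 at 24 h. All Ph3h arrays lay above and all Ph24h arrays below the control arrays, with differences of 1.53 ± 0.18 (SE, adjusted p = 0.00025) and -1.33 ± 0.18 (SE, adjusted p = 4e-04). Control arrays read 4.73, 4.96 and 4.16 for Mcm7, those at 3 h 15.1, 15.8 and 14.6 and those at 24 h 12.1, 11.1 and 10.6. Here both fed groups lay above every control array. Mcm7 was read from its only probe, whose match to human transcripts was not analysed here. Mcm7 differed by 1.72 ± 0.086 (SE, adjusted p = 4.3e-06) at 3 h and 1.29 ± 0.086 (SE, adjusted p = 1.3e-05) at 24 h, and fell by 0.43 between the fed groups (SE 0.086, adjusted p = 0.0051). For Mcm2 the scaled intensities were 2.29, 2.16 and 2.10 (control), 1.63, 2.21 and 1.97 (Ph3h) and 0.679, 0.825 and 0.933 (Ph24h). Control and Ph3h arrays overlapped, and the Ph24h arrays lay apart below them. The Mcm2 difference was -0.18 ± 0.15 (SE, adjusted p = 0.33) at 3 h and -1.44 ± 0.15 (SE, adjusted p = 1e-04) at 24 h. Mcm4 and Mcm6 differed by 0.51 and 0.59 at 3 h and by -0.91 and -1.13 at 24 h. For Mcm3 the 3 h difference was 0.15 ± 0.047 (SE, adjusted p = 0.03), which turned to -0.095 with median scaling, and the 24 h difference was -1.03 ± 0.047 (SE, adjusted p = 2.1e-06). Its 3 h call was lost without any control array or without Ph3h replicate 1 or 2 (0.13 to 0.16). A second Mcm3 probe gave 0.14, not called, and -0.98.

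Helicase activation genes split by complex subunit. Mcm10 stood at 1.23, 1.16 and 1.23 in unfed microglia, at 1.67, 1.60 and 1.35 after 3 h and at 0.357, 0.282 and 0.372 after 24 h. Its Ph3h arrays lay above and its Ph24h arrays below all control arrays. Mcm10, which joins the ring as it is activated, differed by -1.85 ± 0.12 (SE, adjusted p = 1.4e-05) at 24 h and by 0.35 at 3 h, where the adjusted p rounds to the threshold of 0.05 and the call was lost without any control array, Ph3h replicate 1 or 2 or Ph24h replicate 1 (0.28 to 0.36). Gins1 gave 2.71, 2.69 and 2.75 in control microglia, then 2.40, 1.94 and 1.89 at 3 h and 1.25, 1.06 and 0.867 at 24 h. The order was control, Ph3h, Ph24h from high to low, with no overlap. Gins1 was -0.40 ± 0.15 (SE, adjusted p = 0.055) at 3 h, not called, and -1.37 ± 0.15 (SE, adjusted p = 0.00013) at 24 h. Control arrays read 1.66, 1.62 and 1.44 for Gins2, those at 3 h 2.47, 3.19 and 3.28 and those at 24 h 1.17, 1.22 and 1.16. Its Ph3h arrays were the high group. Gins2 differed by 0.91 ± 0.12 (SE, adjusted p = 0.00043) at 3 h and by -0.41 ± 0.12 (SE, adjusted p = 0.017) at 24 h, a call that was lost without control replicate 1 (-0.37) or 2 (-0.38). Of the other GINS subunits, Gins3 was higher at 3 h by 0.42 and not called at 24 h (0.14), and Gins4 was not called at 3 h (-0.19) and lower at 24 h (-0.55).

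The clamp and all its loader subunits were lower at 24 h, 6 of 6, while 1 was higher and 1 lower at 3 h. Of all genes, 33.2% were lower at 24 h, and 27.9% were higher and 25.9% lower at 3 h. For Rfc5 the scaled intensities were 3.88, 3.84 and 3.91 (control), 7.63, 6.61 and 7.51 (Ph3h) and 1.90, 1.87 and 1.76 (Ph24h). Every Ph3h array lay well above the control arrays and every Ph24h array below them. Rfc5 differed by 0.90 ± 0.070 (SE, adjusted p = 3.6e-05) and -1.07 ± 0.070 (SE, adjusted p = 1.2e-05). Rfc2 stood at 10.6, 10.7 and 10.4 in unfed microglia, at 9.82, 9.47 and 10.1 after 3 h and at 6.27, 6.46 and 6.44 after 24 h. The fed arrays lay below control at both times, by a margin the test did not call at 3 h. Rfc2 differed by -0.11 ± 0.050 (SE, adjusted p = 0.1) and -0.73 ± 0.050 (SE, adjusted p = 1.5e-05). Pcna gave 90.4, 85.5 and 88.1 in control microglia, then 90.0, 91.1 and 91.3 at 3 h and 53.1, 55.7 and 50.8 at 24 h. Control and Ph3h arrays overlapped and the Ph24h arrays lay apart. For Pcna, the sliding clamp, the differences were 0.05 ± 0.055 (SE, adjusted p = 0.52) and -0.73 ± 0.055 (SE, adjusted p = 2.3e-05). Rfc1 was not called at 3 h (0.08) and was lower at 24 h (-0.39), and Rfc3 was lower at both times (-0.31 and -0.68).

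For Rfc4 the direction differed between its probes. The exons they read and their match to human transcripts were not analysed here, nor were those of Tk1 below or of any other gene's probes. Both its probes carry the same RefSeq transcript in the array files. The start of each is printed here to show where they differ, 30 of 60 bases in lower case, with the strand as the files give it.
Rfc4 probe A_55_P2159801: tgggccacctggaactggcaaaacatccac
Rfc4 probe A_55_P2159807: ggcttcatctctccccttttgtatgaaacc

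The probe at chr16:23114024-23114083 (mm9, minus strand) is the brighter and stands for the gene. Control arrays read 4.35, 4.12 and 4.25 for Rfc4, those at 3 h 4.45, 4.04 and 3.94 and those at 24 h 2.83, 2.65 and 2.58. Its Ph24h arrays lay below all others, with differences of -0.04 ± 0.068 (SE, adjusted p = 0.69) and -0.66 ± 0.068 (SE, adjusted p = 0.00011). The probe at chr16:23120982-23121041 gave 1.14, 1.04 and 1.23 unfed, 2.28, 1.91 and 1.88 at 3 h and 2.66, 2.79 and 2.48 at 24 h, rising from group to group without overlap. It differed by 0.83 ± 0.10 (SE, adjusted p over all probes = 0.00041) at 3 h and by 1.22 ± 0.10 (adjusted p = 4.6e-05) at 24 h.

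Of the 9 polymerase and primase genes, 3 were higher at 24 h (33.3%), near the 29.9% of all genes. Another 5 were lower (55.6%, against 33.2% of all genes). For Pold1 the scaled intensities were 5.47, 5.28 and 5.91 (control), 13.5, 14.1 and 11.9 (Ph3h) and 15.5, 15.8 and 14.7 (Ph24h). Both fed groups lay far above control, without overlap, on the only Pold1 probe. Pold1, the catalytic subunit of polymerase delta, differed by 1.24 ± 0.081 (SE, adjusted p = 1.6e-05) at 3 h and 1.46 ± 0.081 (SE, adjusted p = 5.4e-06) at 24 h. Pold2 stood at 1.20, 1.22 and 1.05 in unfed microglia, at 1.31, 1.53 and 1.40 after 3 h and at 1.48, 1.69 and 1.49 after 24 h. The fed arrays lay above control and overlapped each other. Pold2, its accessory subunit, differed by 0.29 ± 0.095 (SE, adjusted p = 0.035) and 0.43 ± 0.095 (SE, adjusted p = 0.0057). With median scaling the Pold2 difference at 24 h was -0.083. Its 3 h call was lost without control replicate 1 or 3 or Ph3h replicate 2 or 3 (0.22 to 0.32). Pold3, another accessory subunit, was lower at both times, by -0.45 and -0.24, with the 24 h call lost under quantile normalization (-0.13, adjusted p = 0.11), normexp (-0.15, 0.075) and the value table (-0.13, 0.11).

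Pole gave 0.812, 0.900 and 0.913 in control microglia, then 1.53, 1.40 and 1.26 at 3 h and 0.305, 0.188 and 0.253 at 24 h. The Ph3h arrays were the high group and the Ph24h arrays the low one. Pole, the catalytic subunit of polymerase epsilon, differed by 0.67 ± 0.17 (SE, adjusted p = 0.013) and -1.84 ± 0.17 (SE, adjusted p = 6.7e-05). The second Pole probe that was kept gave 0.62 and -0.75, neither called, and fell to background at 24 h. Pole2, its partner subunit, was lower at both times, by -0.99 and -0.97, and did not differ detectably between them (0.02). Control arrays read 0.232, 0.243 and 0.209 for Pola2, those at 3 h 0.206, 0.195 and 0.226 and those at 24 h 0.246, 0.302 and 0.335. The control and Ph3h arrays overlapped, and the lowest Ph24h array lay just above the highest control array. Pola2, the regulatory subunit of polymerase alpha, differed by -0.12 ± 0.13 (SE, adjusted p = 0.45) and 0.36 ± 0.13 (SE, adjusted p = 0.039). The Pola2 call at 24 h was lost under 7 other settings, was -0.15 with median scaling, and was lost without any control array, Ph3h replicate 1 or Ph24h replicate 2 or 3 (0.26 to 0.41). Pola1, the catalytic subunit, was not called at 3 h (0.29) and was lower at 24 h (-1.40). Of the primase genes, Prim1 was not called and then lower (0.13 and -1.02), and Prim2 was higher and then not called (0.41 and -0.24).

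Replication protein A, the complex of 3 subunits that coats single-stranded DNA, also differed by subunit. For Rpa1 the scaled intensities were 32.1, 32.0 and 30.7 (control), 30.4, 35.7 and 33.5 (Ph3h) and 17.9, 18.9 and 17.3 (Ph24h). Control and Ph3h arrays overlapped and Ph24h arrays lay below. Rpa1 differed by 0.07 ± 0.074 (SE, adjusted p = 0.49) and -0.81 ± 0.074 (SE, adjusted p = 5.7e-05). Rpa3 stood at 6.18, 5.86 and 5.72 in unfed microglia, at 2.19, 2.24 and 2.06 after 3 h and at 3.73, 3.68 and 3.83 after 24 h. The Ph3h arrays were the lowest, with Ph24h arrays between them and control and no overlap. Rpa3, the smallest subunit, differed by -1.45 ± 0.058 (SE, adjusted p = 1.5e-06) at 3 h and -0.66 ± 0.058 (SE, adjusted p = 4.8e-05) at 24 h. Between the fed times Rpa3 rose by 0.79 ± 0.058 (SE, adjusted p = 3.2e-05) while Rpa1 fell by 0.88. Rpa2 was 0.30 at 3 h and -0.33 at 24 h, neither called, and fell by 0.62 between the fed groups (adjusted p = 0.0054).

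Among genes that process Okazaki fragments, 3 of 4 were lower at 24 h, beside 33.2% of all genes. Fen1 gave 26.0, 27.3 and 27.4 in control microglia, then 30.3, 33.1 and 28.9 at 3 h and 14.2, 15.6 and 15.6 at 24 h. The Ph3h arrays lay above and the Ph24h arrays below control. Fen1, the flap endonuclease, differed by 0.19 ± 0.072 (SE, adjusted p = 0.056), not called, and -0.83 ± 0.072 (SE, adjusted p = 4.5e-05). Control arrays read 0.221, 0.181 and 0.214 for Dna2, those at 3 h 0.0529, 0.0433 and 0.0161 and those at 24 h 0.0790, 0.0784 and 0.0581. Neither fed group held an array well above background. Dna2, a helicase and nuclease, was at least 3.62-fold below control at 3 h and at least 2.62-fold below it at 24 h. The fitted differences were -2.62 (adjusted p = 0.0013) and -1.52 (adjusted p = 0.014), tests that do not apply to the bounds. The second Dna2 probe was above background on 1 array of 9 and gave no call. With the mean over both probes Dna2 was not called (-0.65, adjusted p = 0.1, at 3 h and -0.47, 0.21, at 24 h). Lig1, the ligase that seals fragments, was lower at both times (-0.24 and -0.76). Rnaseh2a, a subunit of the nuclease that removes RNA primers, was lower at 3 h (-0.29, adjusted p = 0.02) and not called at 24 h (-0.09). The call was lost without control replicate 1 or 2 or Ph3h replicate 1 or 3 (-0.27 to -0.25). Of its 4 other probes, 3 were called lower at 3 h and 2 at 24 h.

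The chromatin and topology genes went up at 3 h and down by 24 h, 3 of 3 each time. For Top2a the scaled intensities were 0.939, 0.792 and 0.869 (control), 1.56, 1.67 and 1.60 (Ph3h) and 0.136, 0.170 and 0.169 (Ph24h). The 3 groups lay wholly apart. Top2a, the topoisomerase that untangles sister DNA, differed by 0.90 ± 0.11 (SE, adjusted p = 0.00031) and -2.46 ± 0.11 (SE, adjusted p = 1.7e-06), and by -3.36 ± 0.11 (adjusted p = 1.1e-06) between the fed times, a 10.2-fold fall. Chaf1b stood at 9.68, 9.47 and 9.09 in unfed microglia, at 13.8, 13.6 and 12.4 after 3 h and at 7.59, 7.64 and 6.80 after 24 h. The groups again did not overlap. Chaf1b, a subunit of the chromatin assembly factor that places histones on new DNA, differed by 0.49 ± 0.071 (SE, adjusted p = 0.00083) and -0.36 ± 0.071 (SE, adjusted p = 0.0033). A second probe gave 0.31 and -0.54, both called, and the third was above background on 1 Ph24h array alone. Averaged over all 3 probes, Chaf1b was not called at 3 h (0.47, adjusted p = 0.28), and its 24 h difference was 0.26. Chaf1a differed by 0.50 and -0.24, and its 24 h call was lost without control replicate 1 (-0.23), control replicate 2 (-0.21) or Ph24h replicate 2 (-0.20).

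Nucleotide supply genes held the largest fall of the 44 between the fed times. Rrm2 gave 1.87, 2.01 and 1.84 in control microglia, then 4.77, 5.75 and 4.97 at 3 h and 0.404, 0.426 and 0.394 at 24 h. All Ph3h arrays lay above and all Ph24h arrays below control. Rrm2, the S phase subunit of ribonucleotide reductase, differed by 1.43 ± 0.084 (SE, adjusted p = 9.6e-06) at 3 h and -2.23 ± 0.084 (SE, adjusted p = 8.7e-07) at 24 h. Between the fed times it fell by 3.66 (SE 0.084, adjusted p = 6e-07), or 12.6-fold. Rrm1, the large subunit, moved the same way, by 0.68 and -0.91. Control arrays read 0.154, 0.180 and 0.261 for Tyms, those at 3 h 0.282, 0.270 and 0.326 and those at 24 h 0.403, 0.310 and 0.335. The fed arrays lay above all control arrays and overlapped each other. Tyms, the enzyme that makes thymidylate, differed by 0.59 ± 0.20 (SE, adjusted p = 0.04) at 3 h and 0.84 ± 0.20 (SE, adjusted p = 0.0079) at 24 h. The 3 h call of Tyms was lost without control replicate 1 or 2, any Ph3h array or Ph24h replicate 2 or 3 (0.43 to 0.65). It was also lost under quantile normalization (0.42, adjusted p = 0.09), median scaling (0.35, 0.16), normexp (0.16, 0.17), the value table (0.42, 0.089) and the fit of 2 groups (0.59, 0.063), and the 24 h call of Tyms with median scaling (0.34, adjusted p = 0.15). Dut, which removes dUTP, was not called at 3 h (-0.17) and was lower at 24 h (-1.68).

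Tk1, the thymidine kinase of the salvage route, gave opposite results at 24 h on its probes. They are shown, again as the first 30 of 60 bases, because the array files assign them to different transcripts of the gene.
Tk1 probe A_55_P2056493: ttgggtgtggccgtcattggcatcgatgag
Tk1 probe A_55_P2056496: cctcagctcttagtgagccacttttcttgt

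The probe assigned to ENSMUST00000153298, at chr11:117683390-117683449 (mm9, minus strand), has the higher mean of log2 intensities over all arrays and stands for the gene. That mean includes the Ph24h arrays, on which the other kept probe was dimmer. On control and Ph3h arrays the other kept probe was the brighter. For Tk1 the scaled intensities were 0.253, 0.308 and 0.285 (control), 1.23, 1.35 and 1.34 (Ph3h) and 1.01, 1.02 and 0.804 (Ph24h). Both fed groups lay above control, and it differed by 2.22 ± 0.12 (SE, adjusted p = 5.4e-06) and 1.74 ± 0.12 (SE, adjusted p = 1.3e-05). The probe assigned to NM_009387, at chr11:117676845-117676904, gave 0.781, 0.917 and 0.877 unfed, 3.02, 3.66 and 3.15 at 3 h and 0.0885, 0.127 and 0.137 at 24 h. On it the Ph3h arrays were highest and the Ph24h arrays lowest. It differed by 1.93 ± 0.17 (SE, adjusted p over all probes = 8.4e-05) at 3 h and by -2.89 ± 0.17 (adjusted p = 9e-06) at 24 h. With normexp background correction, which ranks this probe as the brighter, Tk1 differed by -1.67 at 24 h, and with the mean over probes by -0.58. The remaining Tk1 probe rose above background nowhere.

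**Figure D4:**
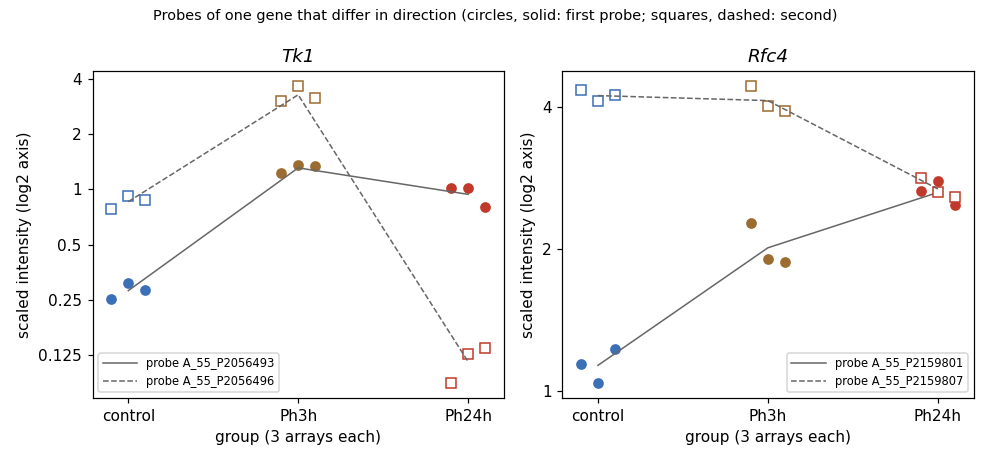
Scaled intensity (y axis, log2 axis) of the kept probes of Tk1 (left) and Rfc4 (right) in control, Ph3h and Ph24h microglia, 1 point per array, with lines through the group means. At 24 h the Tk1 probes lie at 0.804 to 1.02 and 0.0885 to 0.137, one above and one below its own control arrays. Of the Rfc4 probes, one lies above and one below its own control arrays at 24 h.

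Other genes of the same processes, 80 measured in 6 lists, were mostly lower at 24 h. At 3 h, 23 were called higher and 26 lower (28.7% and 32.5%), near the 27.9% and 25.9% of all genes. At 24 h, 10 and 53 were called (12.5% and 66.2%), beside 29.9% and 33.2% of all genes, with a median of -0.49. Other origin and fork genes counted 3 higher and 14 lower of 21 at 24 h. They included Recql4 (-1.98 at 3 h and -2.31 at 24 h), Timeless (-0.23, not called, and -1.94) and Ticrr, which was at background at 24 h, with a log2 difference of -1.55 or lower. Further polymerase, clamp and nuclease genes counted 1 higher and 6 lower of 11, and further chromatin assembly genes 2 higher and 5 lower of 8. In the latter list Uhrf1, which recruits the maintenance DNA methyltransferase, was 1.34 at 3 h and -1.47 at 24 h, and Ssrp1, a subunit of the histone chaperone FACT, was 1.18 and 1.49. None of 14 other deoxynucleotide genes was higher at 24 h and 12 were lower, Dtymk (-0.27 and -1.08) and Rrm2b (-1.23 and -0.94) among them. Purine and pyrimidine synthesis counted 3 higher and 13 lower of 18, with Ctps at -0.72 and -1.84, Prps1 at 0.34 and -1.60 and Adsl at 1.27 and 1.79. Among 8 E2F family genes, 4 exceeded control at 3 h and 3 lay below it, against 1 and 3 at 24 h. E2f1 was not called at either time (0.10 and -0.05), E2f2 was lower at both (-0.67 and -1.80), E2f7 higher at both (0.63 and 0.73), and E2f8 higher and then lower (0.37 and -0.68).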

How the data were processed

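Scanner files of 9 one-color arrays were used. Per the labels and the study's methods, the authors made them with Agilent Feature Extraction 10.7.3.1, and the deposited intensity is a linear, background-subtracted signal, not normalized between arrays. A deposited value table holds log2 values that the authors made with GeneSpring GX after a presence filter. It covers 36,655 probes, of which 36,625 served as an alternative. Against the scanner intensities over 32,401 probes its group differences had slopes of 0.963 and 0.961 (Pearson's r = 0.993 and 0.978 across probes at 3 h and 24 h, a description), so its direction and log2 scale were read from the data. Its medians were 0.0944, 0.0890 and 0.0978 on control, 0.00591, 0.00194 and -0.00565 on Ph3h and -0.0712, -0.0471 and -0.0545 on Ph24h arrays. The sources used here do not give its scaling between arrays.

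Flagged spots were left out, spots of a probe averaged on the log2 scale, and each array's 75th percentile was subtracted. Probes well above background on at least 1 array were kept (34,381 in all), and a gene was read from its probe of highest mean. Group means were fitted with limma 3.58.1 (R 4.3.3, with data.table, version 1.17.8, and jsonlite 2.0.0) over 24,101 genes with lmFit and eBayes, without covariates, and p-values adjusted by Benjamini-Hochberg, called below 0.05. Where every array of a group was at background, a fold is a lower bound against the lowest signal well above background. The number of arrays limits the precision. The procedure was tested on simulated data. Sequences and figures used Python 3.11.15, pandas 2.3.3 and matplotlib 3.10.9.

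The genes and lists were chosen with earlier results of these data known, and 2 marker genes are not reported here. In each step, genes given array by array are the pair that differed most at 24 h, the called gene that differed most at 3 h, and each gene called higher at 24 h. Pcna and Rfc4 were added after their values were seen. Alternatives were other scalings, filters, background correction, probe averaging, blocks for slide and replicate number, each slide alone, a variance trend, fits of 2 groups, the value table and leaving out each array. Probe coordinates are mm9, per the file headers. Of the accessions of the 44 probes used, 43 were in the RefSeq table, all under the same symbol.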

Additional observations from a re-analysis of the deposited data

Results flagged for a closer look

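For 13 genes the difference from control was called in opposite directions at 3 h and 24 h. The change between the fed times was called in all 13, as opposite calls in the same fit all but ensure, and is no separate evidence. On the log2 scale, 24 h minus 3 h, it was -3.66 for Rrm2, -3.36 for Top2a, -2.86 for Mcm5, -2.52 for Pole, -2.20 for Mcm10 and -1.98 for Rfc5. It was -1.72 for Mcm6, -1.59 for Rrm1, -1.42 for Mcm4, -1.32 for Gins2, -1.17 for Mcm3, -0.85 for Chaf1b and -0.75 for Chaf1a. Both differences from control share the same control arrays. Over all genes tested, 3.81% were called higher at 3 h and lower at 24 h. With 3 arrays a group, single arrays were not screened for standing apart.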

How the results depend on the processing

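Of the 44 genes, 26 were lower at 24 h under all 21 settings that gave a test, and of the 6 higher at 24 h, Mcm7 and Pold1 were. With median scaling, calls were 10 higher and 16 lower at 3 h, 3 higher at 24 h and 1 higher at 24 h than at 3 h, 7 genes were higher and then lower, and medians were -0.074, -1.25 and -1.02. Single genes turned with it to -0.095 for Mcm3 at 3 h, -0.37 for Gins3, -0.15 for Pola2 and -0.083 for Pold2 at 24 h, and -0.047 for Pold3 between fed times. With normexp the medians at 24 h and between fed times were -0.65 and -0.56, and Tk1 at 24 h was -1.67. Between fed times the median was -0.68 with quantile normalization and with the value table, and -0.72 with the mean over probes. On slide 2 alone the medians at 24 h and between fed times were -0.80 and -0.82. A variance trend gave 7 genes higher at 24 h than at 3 h. The mean over probes gave 0.40 and 0.28 for Rfc4 at 3 h and 24 h, 0.26 for Chaf1b and -0.58 for Tk1 at 24 h, and ended the calls of Dna2 at both times, of Chaf1b at 3 h (0.47) and between fed times (-0.21), of Mcm10 and Prim2 at 3 h and of Prim2, Rfc4 (-0.12) and Dut (-0.69) between fed times. Median scaling also ended the 3 h calls of Mcm4, Mcm10, Gins3, Prim2, Pold2, Pole, Chaf1a, Chaf1b and Tyms, quantile normalization and the value table those of Mcm3 and Tyms at 3 h, Pola2 and Pold3 at 24 h and Gins3 and Pola2 between fed times, and normexp those of Mcm3 and Tyms at 3 h, Gmnn, Pola2, Pold3 and Chaf1a at 24 h and Gins3 between fed times. The cause of these changes was not tested, except that averaging mixes probes that differ.

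Replicate numbers did not pair samples (same-numbered arrays' deviations correlated at -0.06 to 0.04), and with the replicate block 18 were higher and 11 lower at 3 h, 5 and 33 at 24 h, 4 and 34 between fed times, and 10 higher and then lower. Leaving out 1 array at a time gave 16 to 20 higher and 8 to 10 lower at 3 h, 5 to 6 and 32 to 35 at 24 h, 3 to 5 and 33 to 34 between fed times, and 9 to 14 higher and then lower. Besides the calls named in the report as lost, it ended the differences between fed times of Gins3 (-0.26 to -0.23 without Ph3h replicate 1 or Ph24h replicate 1 or 3) and Pola2 (0.43 and 0.46 without Ph3h or Ph24h replicate 2). It made calls at 3 h of Cdc6 (-0.39 without Ph24h replicate 2), Dut (-0.29 without Ph3h replicate 2), Fen1 (0.24 without Ph3h replicate 3), Gins1 (-0.50 to -0.40 without Ph3h replicate 1 or Ph24h replicate 1 or 3), Pola1 (0.29 without Ph24h replicate 1) and Rpa2 (0.43 without control replicate 3). It made calls at 24 h of Prim2 (-0.24 without Ph3h replicate 2) and Rpa2 (-0.40 and -0.39 without control or Ph24h replicate 2), and between fed times of Pold1 (0.27 without Ph3h replicate 2) and Dna2 (1.43 and 0.57 without Ph3h replicate 1 or 3, both fed groups being at background). Signal near background limits Cdc6 and Dna2 to bounds.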
